A study of Homo sapiens with 16 samples.

Results

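The transcripts of 10 genes that set the threshold for apoptosis were followed by RNA-seq in 2 human epithelial cell lines in which YAP was either silenced or activated. The genes were BCL2L1, MCL1, BCL2, BCL2L11, BAX, BAK1, BBC3, PMAIP1, BIRC2 and BIRC3, taken by symbol from the deposited count table. They are 10 of the 26229 genes listed there. A431 is a line from an epidermoid carcinoma and HaCaT is an immortalised keratinocyte line, both grown in DMEM with 10% FCS. In each line 1 library came from cells given control siRNA and no vector (siCTRL), 3 from cells that received YAP1 siRNA (siYAP), 1 from cells transfected with empty vector and 3 from cells transfected with YAP1 S5A (YAP5SA), the constitutively active mutant. According to the labels, siRNAs were given 2 times with 24 h between them and RNA was taken 48 h after the second. The 4 groups with 3 libraries are the treated ones, and each control is 1 library, so the spread between control cultures could not be measured. The 3 libraries of a treated group share that 1 control, so their lying on the same side of it is not 3 independent agreements. The methods of the study describe biological triplicates, the labels exempt the controls from them, and neither names the cultures, so p values measure the spread between these libraries. How long the vector was present before RNA was taken, and from which promoter YAP5SA was expressed, is not given in the sources used here.

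The BCL2 family controls the integrity of the outer mitochondrial membrane. Its antiapoptotic members, such as MCL1, BCL-xL (the main product of BCL2L1) and BCL2, hold in check the effectors BAX and BAK1, which oligomerise to form pores and release cytochrome c. BH3-only proteins, among them BIM (BCL2L11), PUMA (BBC3) and NOXA (PMAIP1), are made or activated under stress and neutralise the antiapoptotic members. BIRC2 and BIRC3 encode the ubiquitin ligases cIAP1 and cIAP2, which act further out, at death receptors and in NF-κB signalling. YAP is a transcriptional co-activator restrained by the Hippo pathway and is known for sustaining growth and survival of squamous epithelial progenitors.

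Between 18115624 and 46791673 counts per library were assigned to genes. Levels are given as CPM, the counts of a gene relative to all assigned counts of the library, scaled by TMM factors, and at this depth a count of 0 allows up to 0.063 to 0.164 CPM, a limit that covers counting error only. Tests used edgeR on 14673 genes whose mean passed 10 counts, with all 16 libraries in 1 model. Calls required an FDR below 0.05 together with an average log2 CPM (logCPM) over 1. All 10 genes passed the filter, but BCL2 had a logCPM of -0.03 and could not be called. YAP1 itself had 94.3 CPM under siCTRL and 5.04 to 7.0 CPM under siYAP in A431 cells, and 254 CPM against 21.6 to 23.2 CPM in HaCaT cells. With empty vector it had 124 CPM in A431 cells, where YAP5SA libraries reached 1495 to 3245 CPM (log2 fold change 4.36, SE 0.65, FDR 0.20), and 423 CPM in HaCaT cells, where they reached 7549 to 22255 CPM (4.97, SE 0.67, FDR 0.0021). HaCaT YAP5SA replicate 2 held the most YAP1, and it also held the most PMAIP1 and BIRC3 and the least BAK1 and BCL2L11 of its group. It was the highest or the lowest library of its group for each of the 10 genes but BAX. A431 YAP5SA replicate 2 held the most YAP1 of its group, but the least PMAIP1 and BIRC3. The keratinocyte markers KRT5, KRT14, TP63, DSG3, ITGB4 and CDH1 lay between 79.2 and 2598 CPM in every library, whereas the leukocyte markers PTPRC and CD3E did not pass 0.255 CPM.

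**Figure D1:**
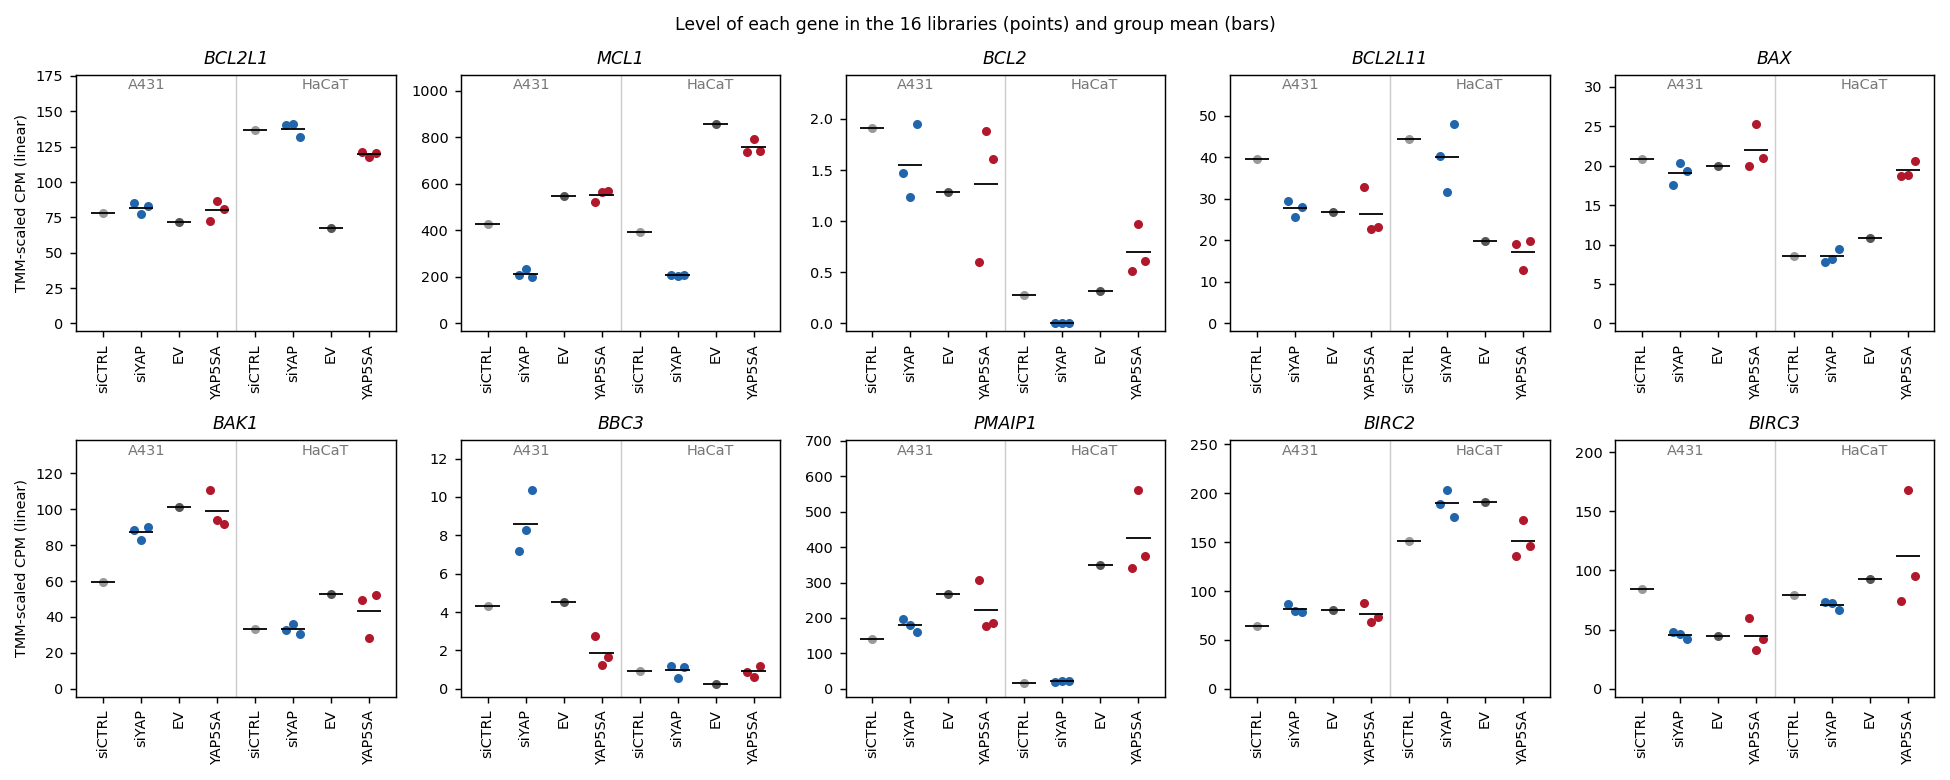
Level of each of the 10 genes as TMM-scaled CPM on a linear axis from 0, in 8 groups of A431 (left) and HaCaT cells (right). Points are libraries and bars are group means (1 library for siCTRL and EV, the empty vector, and 3 for siYAP and YAP5SA). MCL1 lies lowest with siYAP in both lines, and PMAIP1 in HaCaT cells lies near 20 CPM in the siRNA cultures and above 340 CPM in the vector cultures.

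When YAP was silenced MCL1 fell in both lines, and it was the only one of the 10 genes that was called. MCL1 is a short-lived antiapoptotic protein on which many epithelial cells depend. In A431 cells MCL1 had 428 CPM under siCTRL, whereas the 3 siYAP libraries had 209, 234 and 199 CPM. In HaCaT cells it had 392 CPM under siCTRL and 208, 204 and 207 CPM under siYAP. All 6 siYAP libraries lay below the control of their line, and the siYAP levels of the 2 lines were close to each other. The log2 fold change was -1.0 (SE 0.12, FDR 0.00085) in A431, -0.92 (SE 0.12, FDR 0.00101) in HaCaT and -0.96 (SE 0.08, FDR 2.7e-05) over both lines, which is 1.95-fold lower. The difference of this effect between the lines was 0.07 (SE 0.18, FDR 0.93). In each line the fold rests on 1 siCTRL library. The other HaCaT control, empty vector, had 856 CPM, a log2 difference of 1.13 from siCTRL that exceeds the siYAP change of that line in size. With siYAP over both lines 3 of the 6 keratinocyte markers rose, KRT14 by 1.47, ITGB4 by 0.61 and CDH1 by 0.42, and the summed level of the 6 was 2071 CPM under siCTRL against 2384 to 2905 CPM under siYAP in A431 cells and 1803 CPM against 2375 to 2907 CPM in HaCaT cells. CDH5, an endothelial cadherin, was lower with siYAP, with 51.8 CPM under siCTRL and a mean of 12.7 CPM under siYAP in HaCaT cells (-2.03, FDR 0.0015) and 31.1 and 17.6 CPM in A431 cells (-0.82, FDR 0.12). The part of these markers in the fall of MCL1 was not tested. In bulk RNA, a lower level in each cell cannot be told apart from a loss of those cells that held most of the transcript.

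These calls stand against a background in which 5.60% of all tested genes were called with siYAP in A431, 5.67% in HaCaT and 13.0% over both lines. Among the 10 genes, 1 was called in each of these comparisons, the same gene each time. The median log2 fold change of the 10 genes was -0.03 in A431 and -0.01 in HaCaT cells, beside 0.03 for all tested genes in each line. For the difference of the siYAP effect between the lines edgeR called none of the 10 genes and 0.170% of all genes. It gave 1 of the 10 an unadjusted p under 0.05 (BCL2), beside 1690 of all 14673 genes.

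MCL1 is also a gene whose 3′ UTR holds the 7-base strings TTCTTAA or CTTCTTA, which earlier results of these data had shown to be common among genes lower with siYAP. The strings were therefore not chosen independently of these data, and they were searched in 1 GENCODE v29 transcript of each gene, the one with the longest coding part. Of the 10 genes, MCL1, BCL2 and BCL2L11 held a match there, and other coding transcripts of PMAIP1 and BIRC3 held one as well. The matches are printed because MCL1 was the called gene and the other genes with matches were not called. Among these, BCL2 was too low to be called at any fold (logCPM -0.03). In HaCaT cells it had 5 counts under siCTRL and 0 in each siYAP library. Capitals mark the match, in DNA letters of the sense strand.
MCL1, bases 512 to 518 of a 3′ UTR of 2819 bases: ccagtataCTTCTTAgaaagtcc
MCL1, bases 658 to 664: atcctcaaTTCTTAAgacagctt
BCL2, bases 1208 to 1215 of 5279: ccacgaccCTTCTTAAgacatgta
BCL2, bases 4906 to 4913: tattatacCTTCTTAAgttttcaa
BCL2L11, bases 2620 to 2627 of 4216: cgtttcccCTTCTTAAtgtatata
Each of the MCL1 matches has 7 bases, whereas those of BCL2 and BCL2L11 join both strings into 8. Of the 10648 genes with a logCPM above 1 and a matched 3′ UTR, 27.2% held either string, as did 52.9% of the 1042 called lower and 24.6% of the 706 called higher with siYAP over both lines. The genes called lower also had longer 3′ UTRs, with a median of 1524 bases against 1102 for all. With YAP5SA in HaCaT cells 36.5% of the 884 genes called lower and 17.3% of the 917 called higher held either string. Of the pathway genes given further below as lower with siYAP, AIFM1, BCL2L13 and BID held a match in the transcript searched, and APAF1, DIABLO and E2F1 did not. Those given as higher, BCL2L2, FOXO3 and REL, each held a match. BCL2L11, with the 8-base match, had 39.5 CPM under siCTRL and 29.5, 25.6 and 28.1 CPM under siYAP in A431 cells (log2 fold change -0.51, SE 0.27, FDR 0.30), and it was not called. The siRNA sequences are not given in the sources used here, and the part of these strings in the fall of MCL1 was not tested.

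With YAP5SA MCL1 was not called against empty vector. In A431 cells MCL1 had 548 CPM with empty vector and 522, 566 and 568 CPM with YAP5SA (log2 fold change 0.01, SE 0.13, FDR 1.0). In HaCaT cells it had 856 CPM with empty vector and 736, 795 and 744 CPM with YAP5SA (-0.18, SE 0.12, FDR 0.35). The YAP5SA libraries of HaCaT cells thus all lay somewhat below their control, and those of A431 cells lay on both sides of it. With siCTRL and empty vector as 2 controls the HaCaT value had the other sign (0.28, FDR 0.45), and that of A431 cells was 0.18 (FDR 0.92).

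**Figure D2:**
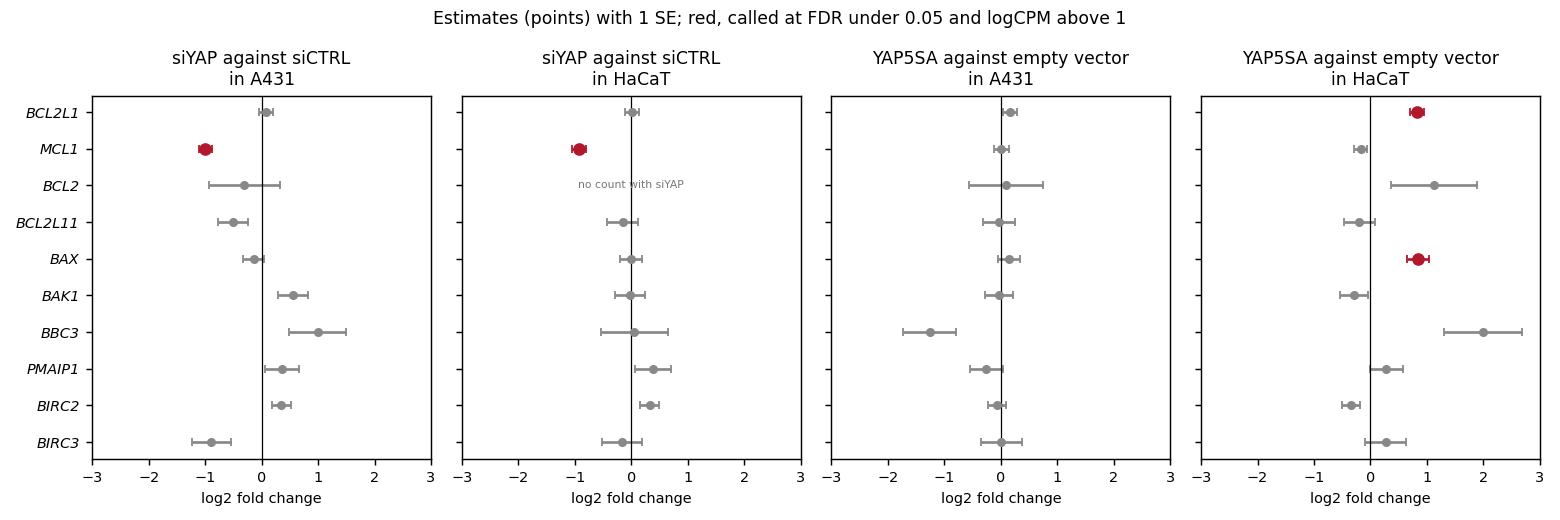
Log2 fold change of each gene (points) with 1 SE (bars) in the 4 comparisons of a treatment with its control within a line, from the edgeR fit. Red points were called, namely MCL1 with siYAP in both lines and BCL2L1 and BAX with YAP5SA in HaCaT, and no fold is drawn for BCL2 in HaCaT siYAP cells, where it had no count.

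BCL2L1 and BAX were the genes called higher with YAP5SA within a line, and this was in HaCaT cells. BCL2L1 gives rise to the antiapoptotic BCL-xL and, by another splice site, to the shorter proapoptotic BCL-xS, and gene counts do not separate these forms. In HaCaT cells BCL2L1 had 67.5 CPM with empty vector and 121, 118 and 121 CPM with YAP5SA, a log2 fold change of 0.83 (SE 0.13, FDR 0.0043). All 3 YAP5SA libraries lay above the empty vector library, which was the lowest of the 16. The siRNA cultures of the same line had more of it, with 137 CPM under siCTRL and 140, 141 and 132 CPM under siYAP. With siCTRL and empty vector entered as 2 controls the change was 0.23 (FDR 0.48) and the call was lost, so it rests on the single empty vector library.

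In A431 cells BCL2L1 had 77.9 CPM under siCTRL, 85.2, 77.4 and 82.9 CPM under siYAP, 71.5 CPM with empty vector and 72.4, 86.8 and 80.8 CPM with YAP5SA. The empty vector library was the lowest of these 8 and all YAP5SA libraries lay above it, by a log2 fold change of 0.16 (SE 0.13, FDR 0.84), whereas the siYAP libraries lay on both sides of siCTRL. Neither comparison was called. The YAP5SA effect on BCL2L1 differed between the lines by 0.67 (SE 0.18, FDR 0.072), which misses the threshold in edgeR and passes it in DESeq2 (FDR 0.011), without A431 YAP5SA replicate 1 (FDR 0.043) and with more than 10 counts in every library (FDR 0.049). With 2 controls that difference was 0.13 (FDR 0.92). Over both lines BCL2L1 rose by 0.50 (SE 0.09, FDR 0.024), but with 2 controls the change was 0.17 (FDR 0.48) and the call was lost. Without A431 YAP5SA replicate 2 the FDR of that rise was 0.052, and without replicate 3 it was 0.063.

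BAX is the effector that waits in the cytosol and inserts into the mitochondrial membrane on activation. In HaCaT cells BAX had 10.8 CPM with empty vector and 18.8, 18.8 and 20.6 CPM with YAP5SA (log2 fold change 0.84, SE 0.20, FDR 0.017). The siCTRL and siYAP libraries of the line, with 8.52 CPM and 7.82, 8.21 and 9.49 CPM, lay below all of these, so that the YAP5SA libraries stood above the other 5. With HaCaT cells fitted alone the FDR was 0.057. In A431 cells BAX lay between 17.6 and 25.3 CPM in all 8 libraries and neither comparison with a control was called. The YAP5SA effect differed between the lines by 0.70 (SE 0.27, FDR 0.15), and over both lines it was 0.49 (SE 0.14, FDR 0.075 by edgeR and 0.016 by DESeq2). The latter was also called with 2 controls (0.55, FDR 0.028) and without replicate 1 of YAP5SA in A431 (FDR 0.034) or in HaCaT (FDR 0.041).

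Of all tested genes 13.6% were called with YAP5SA in HaCaT cells, where 2 of the 10 genes were called, and 2.04% over both lines, where 1 was. In A431 cells 0% were called, the 10 genes included. YAP1 itself was not called there by edgeR (log2 fold change 4.36, FDR 0.20), so the lack of calls does not show a lack of response. There edgeR gave 828 genes an unadjusted p under 0.05, of which BBC3 was 1 of the 10 genes, and DESeq2 called 3 genes and none of the 10. For the difference of the YAP5SA effect between the lines edgeR called 0.0886% of all genes and none of the 10. It gave 3 of the 10 an unadjusted p under 0.05 (BCL2L1, BAX and BBC3), beside 3280 of all 14673 genes. DESeq2 called 2 of the 10 and 6.32% of all genes.

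BCL2, the antiapoptotic gene that names the family, was close to absent. In A431 cells BCL2 had 1.91 CPM under siCTRL, 1.47, 1.24 and 1.95 CPM under siYAP, 1.29 CPM with empty vector and 0.603, 1.88 and 1.61 CPM with YAP5SA, and these overlapped. In HaCaT cells it had 5 counts (0.273 CPM) with siCTRL and 0 counts in each of the 3 siYAP libraries, which allows up to 0.146 CPM in the shallowest of them. The empty vector library had 0.318 CPM and the YAP5SA libraries 0.512, 0.976 and 0.612 CPM. Measured against 3 counts in the shallowest siYAP library, the observed siCTRL value was 1.87-fold higher and the mean of YAP5SA 4.8-fold higher. These folds leave out the counting error of siCTRL, with its 5 counts, and of YAP5SA, so they are not strict lower bounds. Over both lines the siYAP change of BCL2 had an FDR of 0.035, but its logCPM was under the limit for a call. These are differences between very few reads.

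The other effector, BAK1, resides in the mitochondrial membrane. In A431 cells BAK1 had 59.4 CPM under siCTRL and 88.7, 83.2 and 90.2 CPM under siYAP, all above the control (log2 fold change 0.56, SE 0.26, FDR 0.23). In HaCaT cells it had 33.5 CPM under siCTRL and 33.0, 35.9 and 30.3 CPM under siYAP (-0.02, SE 0.26, FDR 0.98). With YAP5SA it had 111, 94.2 and 92.0 CPM in A431 cells, around the 101 CPM of empty vector, and 49.2, 28.4 and 52.0 CPM in HaCaT cells, below the 52.7 CPM of empty vector. HaCaT YAP5SA replicate 2 is the low value of 28.4 CPM. Without that library the estimate in A431 siYAP cells stayed at 0.56 while its FDR was 0.034, whereas with 2 controls it was 0.12 (FDR 0.89).

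None of the BH3-only genes BCL2L11, BBC3 and PMAIP1 was called by edgeR with all libraries when a treatment was compared with its own control. The BH3-only genes of the wider pathway, of which BID and BAD were called, are given further below. Other settings called BBC3 with YAP5SA and PMAIP1 with siYAP, as given for each gene. BIM, the product of BCL2L11, binds all antiapoptotic members and is made in several splice forms that the counts join. BCL2L11 in HaCaT cells had 44.4 CPM under siCTRL and 40.4, 31.7 and 47.9 CPM under siYAP, on both sides of the control. With empty vector it had 19.7 CPM and with YAP5SA 19.2, 12.7 and 19.7 CPM (log2 fold change -0.20, SE 0.28, FDR 0.66). In A431 cells, where the siYAP values are given above, it had 26.8 CPM with empty vector and 32.8, 22.8 and 23.2 CPM with YAP5SA.

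PUMA, encoded by BBC3, is a BH3-only protein made in response to DNA damage. In A431 cells BBC3 had 4.31 CPM under siCTRL and 7.19, 8.27 and 10.4 CPM under siYAP (log2 fold change 0.99, SE 0.51, FDR 0.28). With empty vector it had 4.5 CPM and with YAP5SA 2.75, 1.23 and 1.67 CPM (-1.26, SE 0.47, FDR 0.80). In A431 cells all siYAP libraries thus lay above their control and all YAP5SA libraries below theirs, although neither difference was called. When the treated libraries were compared directly, BBC3 was 4.58-fold lower with YAP5SA than with siYAP (-2.19, SE 0.36, FDR 0.00047).

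In HaCaT cells BBC3 was scarce, with 0.929 CPM under siCTRL, 1.16, 0.535 and 1.16 CPM under siYAP, 0.223 CPM (7 counts) with empty vector and 0.871, 0.632 and 1.2 CPM with YAP5SA. Here the YAP5SA libraries lay above the empty vector library (2.0, SE 0.69, FDR 0.069), whereas they overlapped the siYAP libraries (-0.10, SE 0.39, FDR 0.84). The first of these differences in BBC3 was called by DESeq2 (FDR 0.038), without A431 YAP5SA replicate 1 (FDR 0.045) and without HaCaT YAP5SA replicate 2 (FDR 0.049). With siCTRL and empty vector as 2 controls it was 0.73 (FDR 0.40). The YAP5SA effect on BBC3 had opposite signs in the lines and differed by 3.26 (SE 0.84, FDR 0.071), past the threshold in DESeq2 (FDR 0.012), without A431 YAP5SA replicate 1 (FDR 0.027) and without HaCaT YAP5SA replicate 2 (FDR 0.044), but reduced to 1.96 (FDR 0.28) with 2 controls. The HaCaT side of that difference rests on 7 counts.

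NOXA, the product of PMAIP1, binds MCL1 and marks it for degradation. PMAIP1 in A431 cells had 140 CPM under siCTRL and 197, 180 and 160 CPM under siYAP (log2 fold change 0.36, SE 0.30, FDR 0.53), 267 CPM with empty vector and 306, 178 and 187 CPM with YAP5SA (-0.26, SE 0.29, FDR 0.88). In HaCaT cells it had 15.8 CPM under siCTRL and 20.1, 21.0 and 20.8 CPM under siYAP (0.39, SE 0.32, FDR 0.57). With empty vector the level was 351 CPM, and with YAP5SA it was 342, 563 and 375 CPM (0.28, SE 0.30, FDR 0.55). All siYAP libraries lay above their control in both lines without a call, and every vector culture of HaCaT cells lay far above every siRNA culture. With siCTRL and empty vector as 2 controls the sign of the siYAP change turned, to -3.15 (FDR 0.011) in HaCaT and -1.67 (FDR 0.034) over both lines, since the empty vector library then enters the control.

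BIRC2 and BIRC3 lie beside YAP1 on chromosome 11 in the RefSeq annotation, with no other protein-coding gene between them. In A431 cells BIRC2 had 64.2 CPM under siCTRL and 86.6, 80.0 and 79.0 CPM under siYAP, and in HaCaT cells 151 CPM and 189, 204 and 176 CPM. Thus all 6 siYAP libraries lay above the control of their line, and the log2 fold change over both lines was 0.34 (SE 0.12, FDR 0.078), short of a call. Without A431 YAP5SA replicate 1 the FDR of this change was 0.041, and without HaCaT YAP5SA replicate 2 it was 0.043, whereas with 2 controls the change was 0.16 (FDR 0.31). In A431 cells BIRC2 had 80.1 CPM with empty vector and 87.5, 68.5 and 73.1 CPM with YAP5SA, and in HaCaT cells 191 CPM and 135, 173 and 146 CPM (-0.34, SE 0.16, FDR 0.17).

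BIRC3, a well-known NF-κB target, had 84.4 CPM under siCTRL in A431 cells and 47.9, 46.2 and 42.1 CPM under siYAP (-0.89, SE 0.35, FDR 0.15). The siCTRL library was the highest of the line, since empty vector had 44.5 CPM and YAP5SA 59.7, 32.9 and 41.7 CPM. In HaCaT cells BIRC3 had 79.2 CPM under siCTRL, 73.3, 72.5 and 66.8 CPM under siYAP, 93.1 CPM with empty vector and 74.1, 168 and 94.9 CPM with YAP5SA. No comparison of BIRC3 with a control was called. Without HaCaT YAP5SA replicate 2, the library with 168 CPM, the siYAP change in A431 cells kept its size (-0.89) and was called, with an FDR of 0.037, whereas with 2 controls it was -0.50 (FDR 0.50).

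In HaCaT cells, larger differences of some of the 10 genes separated the vector cultures from the siRNA cultures, also between the controls. The contrast of empty vector with siCTRL was added after these values had been seen. It sets 1 library against 1, with the spread taken from the treated groups, and it cannot tell YAP-independent effects of the 2 transfections from differences between these particular cultures. In HaCaT cells 4 of the 10 genes were called, a share close to the 39.5% of all genes called in that comparison. PMAIP1 was higher with empty vector by 4.47 (SE 0.42, FDR 9.5e-06), which is 22.2-fold, and MCL1 by 1.13 (SE 0.16, FDR 0.00013). BCL2L11 was lower by a log2 difference of -1.17 (SE 0.35, FDR 0.016) and BCL2L1 of -1.02 (SE 0.15, FDR 0.00023). In A431 cells edgeR called none of the 10 and 1.17% of all genes. It gave 3 of the 10 an unadjusted p under 0.05 (MCL1, BAK1 and PMAIP1), beside 2417 of all 14673 genes. DESeq2 called 0 of the 10 and 5.02% of all genes.

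Markers of the cell type moved between the same HaCaT controls. Of the 6 keratinocyte markers 3 were higher and 1 lower with empty vector, and their summed level was 5426 CPM with empty vector and 3005 to 5365 CPM with YAP5SA, against 1803 CPM under siCTRL and 2375 to 2907 CPM under siYAP. Of the endothelial markers, CDH5 had 51.8 CPM under siCTRL and 0.127 CPM with empty vector in HaCaT cells, and the sum of CDH5 and PECAM1 was at most 3.58 CPM in the vector cultures of both lines. Summed fibroblast markers lay at 5.69 CPM or below in every library. The part of these shifts in the levels of the 10 genes was not tested.

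**Figure D3:**
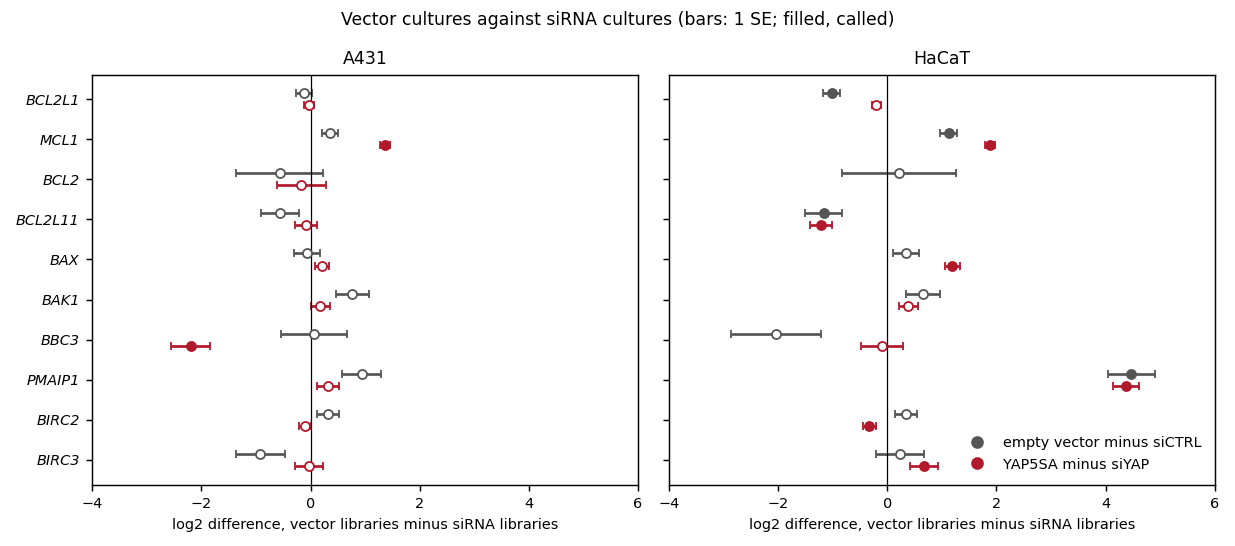
Log2 difference between vector and siRNA libraries of each gene with 1 SE, for the controls (grey, empty vector minus siCTRL) and the treated groups (red, YAP5SA minus siYAP) in each line. Filled points were called, and the value of BCL2 against HaCaT siYAP is left out because it had no count there. PMAIP1 in HaCaT cells lies above 4 in both contrasts, and MCL1 lies further to the right for the treated groups than for the controls.

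The comparison of YAP5SA with siYAP is the one with 3 libraries on each side, but the kind of transfection differs along with YAP. It also uses the same treated libraries as the comparisons above. In HaCaT cells 6 of the 10 genes were called where 60.0% of all genes were, and in A431 cells 2 of the 10 where 34.6% were, so that the shares resemble the background or lie below it. MCL1 was higher with YAP5SA than with siYAP by 1.36 (SE 0.09, FDR 1.4e-06) in A431 and 1.88 (SE 0.09, FDR 4.3e-09) in HaCaT cells. In HaCaT cells PMAIP1 was higher by 4.37 (SE 0.24, FDR 9.9e-09), a 20.7-fold difference, and BAX by 1.19 (SE 0.14, FDR 5e-06). BCL2L11 differed there by -1.22 (SE 0.20, FDR 0.00012).

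The remaining calls in HaCaT cells were smaller. BIRC2 was lower with YAP5SA than with siYAP (-0.33, SE 0.12, FDR 0.023), a call that was kept in 12 of 18 refits and lost without replicate 1 or 2 of HaCaT siYAP or replicate 1 or 3 of HaCaT YAP5SA (FDR 0.052 to 0.082). BIRC3 was higher (0.67, SE 0.26, FDR 0.033), but without HaCaT YAP5SA replicate 2 the difference was 0.25 (FDR 0.26), and leaving out any siYAP library of HaCaT also ended the call (FDR 0.065 to 0.083). BCL2L1 was just short of a call at -0.20 (SE 0.09, FDR 0.054), with all YAP5SA libraries below all siYAP libraries, and it was called without A431 YAP5SA replicate 1 (FDR 0.029). BAK1 was not called either (0.39, SE 0.18, FDR 0.070). Without HaCaT YAP5SA replicate 2 BAK1 was called (0.62, FDR 0.00031), and so was its difference between the controls, with an FDR of 0.0087 in HaCaT and 0.039 in A431 cells.

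The lines themselves differed in 8 of the 10 genes over the 4 treatments, where 60.6% of all genes were called. The effectors and 2 of the BH3-only genes were lower in HaCaT than in A431 cells. The log2 difference was -2.68 (SE 0.29) for BBC3, -1.23 (SE 0.15) for PMAIP1, -1.09 (SE 0.13) for BAK1 and -0.88 (SE 0.10) for BAX, each with an FDR of 8.7e-06 or lower. BIRC2 (1.17, SE 0.08), BIRC3 (0.74, SE 0.18), BCL2L1 (0.52, SE 0.06) and MCL1 (0.23, SE 0.06) were higher in HaCaT cells, with an FDR of 0.00502 or lower. The mean for PMAIP1 joins a large deficit in the siRNA cultures with higher levels in the vector cultures, so it describes neither. With YAP5SA the BAX levels of HaCaT cells (18.8 to 20.6 CPM) overlapped those of A431 cells (19.9 to 25.3 CPM). Under siCTRL BAX had 8.52 CPM in HaCaT and 20.9 CPM in A431 cells. MCL1 was higher in HaCaT cells only in the vector cultures. Under siCTRL it had 392 CPM in HaCaT and 428 CPM in A431 cells, and under siYAP the means were 207 and 214 CPM. BCL2L1 was lower in HaCaT cells with empty vector (67.5 against 71.5 CPM), and BIRC3 was lower there under siCTRL (79.2 against 84.4 CPM). BCL2L11 did not differ beyond its error (-0.09, SE 0.14, FDR 0.60), and BCL2 was too low to be called.

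To compare levels between genes, CPM was divided by the length of that same GENCODE transcript. On this scale of CPM per kb the median over the 8 group means was 160 for PMAIP1 and 124 for MCL1, followed by 31.0 for BCL2L1, 28.7 for BIRC2, 26.2 for BAK1, 14.4 for BIRC3, 14.2 for BAX, 5.36 for BCL2L11, 0.776 for BBC3 and 0.133 for BCL2. The ranges over groups of BCL2L1 (25.9 to 52.8), BIRC2 (15.8 to 47.03) and BAK1 (15.5 to 47.4) overlapped, as did those of BIRC3 (8.55 to 21.6) and BAX (6.26 to 16.2). The ranges also overlapped across these sets, since BIRC3 and BAX reached above the lowest values of BIRC2 and BAK1. That of BCL2L11 (3.39 to 8.72) overlapped those of BIRC3, BAX and BBC3 (0.122 to 4.72). Neighbours in this order are therefore not separated. PMAIP1 ranged from 12.5 to 338, and with its longest coding transcript its median was 103, below that of MCL1. MCL1 ranged from 52.5 to 218. Its lowest value, in HaCaT siYAP cells, was level with the 52.8 of BCL2L1 in the same cells.

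Over the 8 groups the widest ranges of mean log2 CPM belonged to BCL2 (which depends on the value added to counts of 0), to BBC3 with 5.23 and to PMAIP1 with 4.72. The genes whose centred group means were most like these, by root mean square difference among 12240 genes, were ZNF114 (0.24) and KRT6A (0.27) for PMAIP1, FASN (0.40) and ABTB1 (0.43) for BBC3, and FAM72D (1.04) and GBP1 (1.05) for BCL2. The last pair is far less alike than the others. The 8 groups share libraries of the same line, and a match over 8 points is a description only.

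Start-site windows in the RefSeq table (GRCh38.p14) were available for 9 of the 10 genes, all but MCL1. The core TEAD motif GGAATG, searched on both strands, occurred in the window of BBC3 and in none of the others, and in 14.0% of all 35116 windows. The string GGANTTTCC, a narrow pattern for NF-κB sites, occurred in none of the 9 and in 1.64% of all windows. Looser forms of the NF-κB motif were not searched. The counts therefore do not show that NF-κB sites are absent, from the window of BIRC3 or from the others.

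The 10 genes act within a larger pathway, which was covered by 9 further lists with 78 genes, 71 of them tested. With siYAP over both lines 9 of these 71 were called, 6 lower and 3 higher, which is 12.7% beside the 13.0% of all tested genes. Their median log2 fold change was 0.01, beside 0.04 for all tested genes. The lists were drawn up with earlier results of these data known. The apoptosome and caspase list held 12 tested genes, of which 3 were lower and none higher. APAF1, the scaffold on which caspase-9 is activated, fell most, from 33.1 CPM to 14.5 to 15.6 CPM in A431 cells (-1.13, SE 0.15, FDR 0.0016) and from 80.2 CPM to 42.7 to 49.1 CPM in HaCaT cells (-0.80, SE 0.15, FDR 0.0072). The others were AIFM1 (-0.54) and DIABLO (-0.36), whose product SMAC antagonises IAPs, and neither was called in either line by itself. The median of the list was -0.16. MCL1 and APAF1, which act on opposite sides, thus fell together with siYAP.

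The antiapoptotic relative BCL2L2 (BCL-w) rose with siYAP. BCL2L2 had 57.7 CPM under siCTRL and 88.4 to 98.7 CPM under siYAP in A431 cells (0.69, SE 0.12, FDR 0.0072) and 61.9 CPM against 80.5 to 86.5 CPM in HaCaT cells (0.43, SE 0.12, FDR 0.055), and over both lines the change was 0.56 (SE 0.09, FDR 0.0013). BCL2A1 and BCL2L10, the other antiapoptotic genes, did not pass the count filter. Of the 5 other BH3-only genes BID was lower over both lines (-0.38, FDR 0.047), and of the 5 other pore-forming or BCL2-like genes BCL2L13 was (-0.39, FDR 0.0054). No tested gene of the 4 other IAPs, the 14 death receptor genes or the 5 ubiquitin enzymes of MCL1 was called with siYAP in these comparisons, by edgeR.

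In the NF-κB list 1 of 16 was called with siYAP over both lines (REL, 0.72, FDR 0.034), and in the FOXO and stress list of 10 E2F1 was lower (-1.33, FDR 0.024) and FOXO3 higher (0.44, FDR 0.016).

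**Figure D4:**
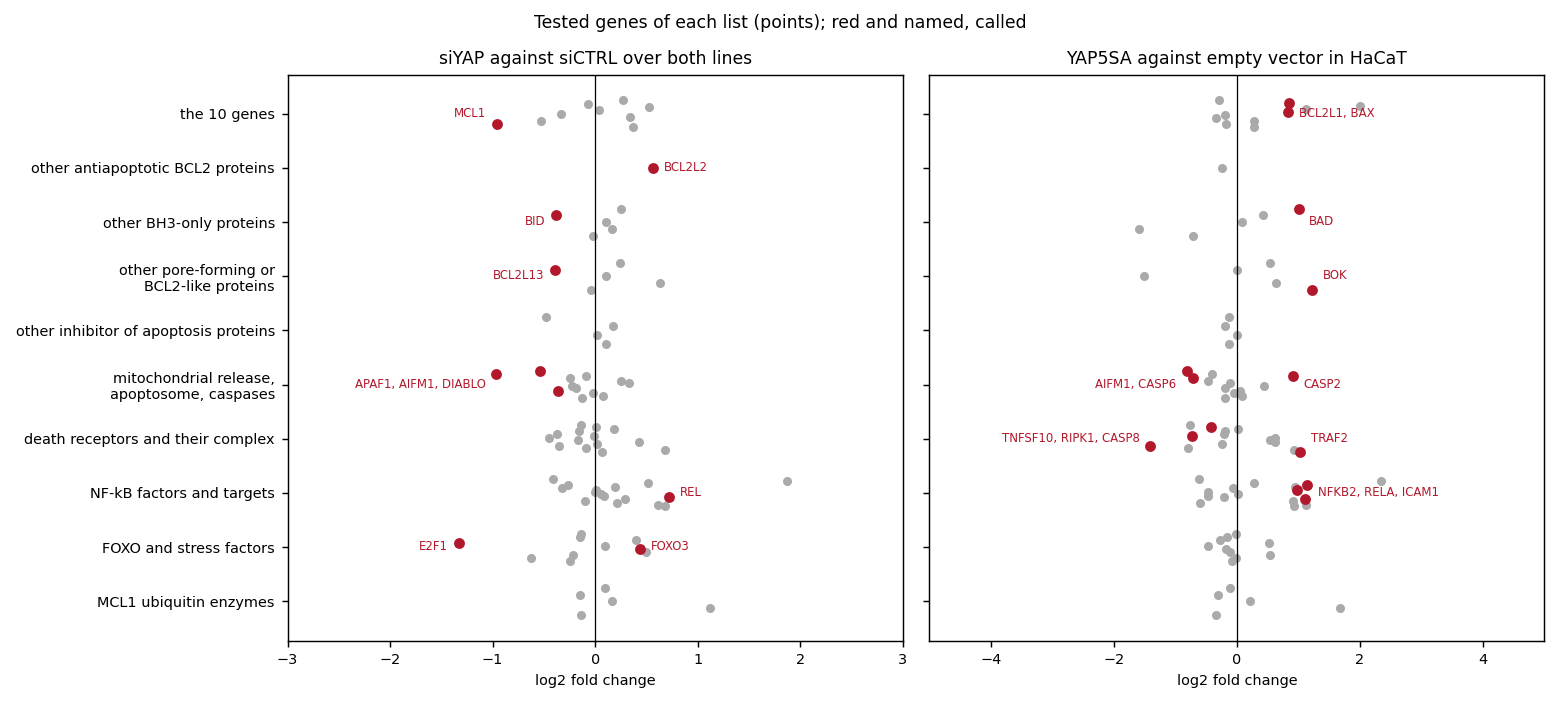
Log2 fold change of the tested genes of each list, with called genes in red and named, for siYAP over both lines (left) and YAP5SA in HaCaT cells (right). BCL2 is left out on the left because it had no count in HaCaT siYAP cells. With siYAP the called genes are MCL1 and 9 of 71 further genes, and with YAP5SA they are BCL2L1 and BAX with 12 of 71.

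With YAP5SA in HaCaT cells 12 of the 71 genes were called, 5 lower and 7 higher, or 16.9% beside 13.6% of all genes, and their median was -0.07 beside 0.01. Next to BAX, the proapoptotic genes BAD (1.003, SE 0.236, FDR 0.018), a BH3-only gene, and BOK (1.224, SE 0.289, FDR 0.018), a BAX-like one, were higher. Of the caspase list CASP2 was higher (0.91) and CASP6 (-0.71) and AIFM1 (-0.81) were lower. Of the death receptor list TRAF2 was higher (1.02) and TNFSF10, the ligand TRAIL (-1.41), RIPK1 (-0.74) and CASP8 (-0.41) were lower. In the NF-κB list RELA (1.10), NFKB2 (0.98) and ICAM1 (1.14) were higher, each of these with an FDR of 0.0445 or lower. All of these rest on the empty vector library that differed from siCTRL in 36 of the 71 genes. Over both lines 2 of the 71 were called, namely CASP2 (0.57) and RELA (0.55).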

How the data were processed

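The deposited table holds estimated counts per gene that the authors made with RSEM (1.2.11 per the submitters' processing notes) for RefSeq gene models of hg19, after they had cut paired reads to 75 bp, and the values are not scaled between libraries. Strand and aligner settings are not given in the sources used here, and gene counts join splice forms. The counts were rounded to whole numbers, and genes with a mean of 10 counts or fewer were left out. Counts were scaled by TMM and fitted with edgeR 4.0.16 (R 4.3.3, quasi-likelihood, prior count 0.125) in 1 model of 8 groups, with 8 residual degrees of freedom and Benjamini-Hochberg adjustment over 14673 genes. The 16 libraries held 18115624 to 46791673 counts (median 26622174). Standard errors (SE) were derived from the F statistic, as the absolute log2 fold change over the root of F. The fit was tested on simulated data with known changes. Each treated group was compared with the control of its own transfection, by line and with the lines averaged, and these effects were compared between lines. YAP5SA was also compared with siYAP, and HaCaT with A431. They share libraries and are not independent. Empty vector against siCTRL was added after seeing the data.

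The genes described were the 10 members, YAP1 and, from each list, the called genes, at most the 4 with the lowest FDR. For the 3 members with the widest range of group means, the 2 genes with the smallest root mean square difference of centred group means were named. Members, lists and 3′ UTR strings were chosen with earlier results of these data known. Some genes and 1 list of related genes are not reported here, and the counts over lists leave them out. GENCODE v29 gave transcripts and 3′ UTRs and RefSeq (GRCh38.p14) start-site windows, both on another build than hg19, so no coordinates are given. Alternatives were DESeq2 1.42.0, its size factors (RLE) in edgeR, other count filters, FDR alone, a minimum absolute log2 fold change of 1, each line alone, siCTRL and empty vector as 2 controls, a replicate block and leaving out each treated library. Replicates of a group differed by more than sampling noise. Libraries of the same number in siYAP and YAP5SA did not all deviate together (correlations 0.002 to 0.128).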

Additional observations from a re-analysis of the deposited data

How the results depend on the processing

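MCL1 was called lower with siYAP in A431, in HaCaT and over both lines in all refits with the same call rule (19, 19 and 18), with log2 fold changes of -1.187 to -0.9487, -1.595 to -0.9024 and -1.391 to -0.9365. All of these refits kept the same single siCTRL library per line, so they cannot show how far the calls depend on it. A minimum absolute log2 fold change of 1 left 0 of the 10 genes called for siYAP in A431, HaCaT or both lines and 0 for YAP5SA in HaCaT or both lines, and 4 for HaCaT against A431 in place of 8. The share of all genes under this minimum was not computed, so these counts have no background beside them. With siCTRL and empty vector as 2 controls, siYAP called 2 of the 10 in HaCaT and 2 over both lines in place of 1, the second being PMAIP1, whose sign turned (-3.152 and -1.667), and YAP5SA in HaCaT called 1 in place of 2. Of all genes, 20% were called in each of these siYAP comparisons and 13% for YAP5SA in HaCaT. FDR alone added BCL2 for siYAP over both lines (2). With each line fitted alone YAP5SA in HaCaT called 1, beside 4.51% of all genes. With 2 controls the YAP5SA call of BCL2L1 over both lines was lost (0.1658) and BAX was called there instead. DESeq2 called 3 for YAP5SA in HaCaT (BBC3 added), beside 18.6% of all genes. It called 5 for empty vector against siCTRL in HaCaT in place of 4 (BBC3 added), beside 41.7%. Over both lines it called 2 for YAP5SA (BAX added), beside 7.24%. It called 2 for the difference of the YAP5SA effect between lines (BCL2L1 and BBC3, in place of 0), beside 6.32%. More than 10 counts in every library, which leaves 8 of the 10 genes in the fit, called 1 for that difference, beside 1.86% of all genes. It called 1 for YAP5SA against siYAP in A431 in place of 2, BBC3 being filtered out, beside 43.1%.

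Leaving out 1 treated library at a time gave 1 to 3 called genes for siYAP in A431 (3 without HaCaT YAP5SA replicate 2, adding BAK1 and BIRC3), 1 to 2 for siYAP over both lines (BIRC2 added without A431 YAP5SA replicate 1 or HaCaT YAP5SA replicate 2), 0 to 2 for YAP5SA over both lines (BCL2L1 lost without A431 YAP5SA replicate 2 or 3, BAX added without replicate 1 of either line's YAP5SA), 0 to 2 for the YAP5SA difference between lines, 2 to 3 for YAP5SA in HaCaT (BBC3 added without A431 YAP5SA replicate 1 or HaCaT YAP5SA replicate 2), 4 to 7 for YAP5SA against siYAP in HaCaT, 4 to 5 for empty vector against siCTRL in HaCaT (BBC3 without A431 YAP5SA replicate 1 or HaCaT siYAP replicate 2, BAK1 without HaCaT YAP5SA replicate 2) and 0 to 1 for empty vector against siCTRL in A431 (BAK1). The background moved as well under these omissions, with 331 to 1263 of all genes called for siYAP in A431, 522 to 1239 in HaCaT, 1302 to 2448 over both lines, 1140 to 2907 for YAP5SA in HaCaT, 50 to 1370 over both lines, 1 to 876 for the YAP5SA difference between lines, 6 to 97 for that of siYAP and 67 to 465 for empty vector against siCTRL in A431. The cause of these changes was not tested. The replicate numbers were not shown to pair the libraries, since not every library correlated best with its own number. With the replicate block, empty vector against siCTRL in HaCaT called 5 of the 10 in place of 4 (BBC3, FDR 0.0416), no other count over the 10 genes changed, and YAP5SA over both lines called 611 of all genes in place of 300.

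Counts over all genes moved more than those over the 10. DESeq2 called 1397 genes for siYAP in A431 (821 with edgeR), 1345 in HaCaT (832), 1063 for YAP5SA over both lines (300), 280 and 928 for the line differences of siYAP and YAP5SA (25 and 13) and 737 for empty vector against siCTRL in A431 (172). With 2 controls siYAP called 198 in A431, 2941 in HaCaT and 2933 over both lines (1904), and YAP5SA 766 over both lines. With each line alone siYAP called 356 and YAP5SA 662 (2001) in HaCaT. RLE size factors, no filter and more than 10 counts in every library gave 108, 35 and 217 for the line difference of YAP5SA. BCL2 in both lines and BBC3 in HaCaT cells are limited by depth.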
